A study of Drosophila melanogaster with 2 samples.

Results

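Candidate peaks of the zinc finger protein Kahuli (Kah) were examined where they lay at the start of a non-coding RNA (ncRNA) gene of *Drosophila melanogaster*. A candidate was taken when its summit, the position of highest signal, lay within 500 bp of the start of a gene of biotype ncRNA and more than 500 bp from the transcription start site (TSS) of every protein-coding transcript. Of the 30000 candidates called on both replicates together, 689 met this rule. A further 350 summits lay near an ncRNA gene start but also within 500 bp of a coding TSS, and these were left out. The pooled list and the list of each replicate all held 30000 entries, deposited as peaks and background together. A candidate thus need not be a bound site.

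The data were ChIP-seq, in which fragments of chromatin bound by a protein are recovered with an antibody and sequenced. Whole embryos of 0 to 16 h and of both sexes came from 1 transgenic line in which green fluorescent protein (GFP) was fused to the C-terminus of Kah, and 2 biological replicates formed the only group. All samples thus carried the tagged protein, and no cell type was separated from the whole embryo. The label of each library names kah as the antibody target, while its free text speaks of an input control. The libraries were treated here as ChIP-seq because the assay title and the listing of files, which holds peaks called against a separate control alignment, describe them so.

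Long non-coding RNAs (lncRNAs) are transcribed by RNA polymerase II like messenger RNAs, but carry no long reading frame. Some act as RNAs, such as the roX RNAs of dosage compensation, and some serve mainly as precursors of microRNAs (miRNAs) or small nucleolar RNAs (snoRNAs). An antisense RNA gene overlaps another gene on the opposite strand, while an intergenic one lies between genes. Kah belongs to the Snail family, whose members bind the E-box CAGGTG, and Snail proteins are known in the fly embryo for repression of neighbouring cell fates. The peak signal at the start of an ncRNA gene does not show which gene, if any, is regulated from there.

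Sequences around the summits are printed here for 5 of the 7 candidates of highest signal, and for 5 of the 6 candidates in the authors' final list that held the E-box. Each is the plus strand of 101 bp centred on the summit, read from the Release 6 assembly that dm6 names. Capitals mark CAGGTG, the related word ACAGGT, the Mef2-like word TATTTA, or the reverse complement of any of these words. Mef2 is a muscle factor. Overlapping words run together in capitals. The strongest candidates come first.
lncRNA:CR44867 (chr2L:15911682-15911782): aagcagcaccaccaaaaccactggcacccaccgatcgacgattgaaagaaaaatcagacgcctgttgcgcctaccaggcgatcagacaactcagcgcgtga
lncRNA:CR31840 (chr2L:14024039-14024139): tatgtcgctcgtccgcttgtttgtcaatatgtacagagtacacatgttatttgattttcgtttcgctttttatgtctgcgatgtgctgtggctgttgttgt
lncRNA:CR31044 (chr3R:29214391-29214491): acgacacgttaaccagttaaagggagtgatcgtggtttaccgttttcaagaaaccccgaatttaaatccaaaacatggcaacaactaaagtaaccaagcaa
lncRNA:CR46036 (chr3R:17700531-17700631): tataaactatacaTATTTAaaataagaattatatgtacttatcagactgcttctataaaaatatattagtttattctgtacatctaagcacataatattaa
lncRNA:CR44409 (chr2L:17430129-17430229): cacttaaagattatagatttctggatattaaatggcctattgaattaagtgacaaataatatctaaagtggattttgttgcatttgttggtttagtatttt
The candidates with CAGGTG follow in order of signal. Each label names the nearest ncRNA gene start, which can lie outside the printed 101 bp. The summit labelled mir-279 lay 120 bp past the start of a mature miRNA, and its window does not hold that start.
mir-279, mature miRNA start (chr3R:29215721-29215821): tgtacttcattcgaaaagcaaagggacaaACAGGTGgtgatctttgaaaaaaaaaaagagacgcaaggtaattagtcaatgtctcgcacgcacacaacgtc
lncRNA:CR45668 (chrX:5900164-5900264): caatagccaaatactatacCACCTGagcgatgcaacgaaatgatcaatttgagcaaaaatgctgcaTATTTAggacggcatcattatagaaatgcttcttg
lncRNA:Vinr (chrX:12750276-12750376): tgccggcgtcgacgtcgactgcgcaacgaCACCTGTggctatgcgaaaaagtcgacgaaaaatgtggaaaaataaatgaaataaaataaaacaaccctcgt
lncRNA:CR43836 (chrX:9049226-9049326): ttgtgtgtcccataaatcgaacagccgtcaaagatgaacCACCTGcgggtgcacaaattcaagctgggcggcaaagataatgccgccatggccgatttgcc
asRNA:CR45396 (chr3L:15141818-15141918): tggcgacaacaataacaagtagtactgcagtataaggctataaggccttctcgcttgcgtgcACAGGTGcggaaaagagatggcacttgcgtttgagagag
None of the 5 sequences of high signal held the E-box, and of these 5 that at lncRNA:CR46036 held TATTTA. The remaining 2 of the 7 strongest, not printed, were at lncRNA:CR44339, which held TATTTA, and at asRNA:CR44375, which held neither word. Over the windows of all 30000 candidates CAGGTG lay at 5.91% and TATTTA at 18.1%. Counts in 7 windows are too few to set against these shares. In the other 5 printed sequences the E-box began between 11 and 31 bp from the summit.

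The share of candidates that passed into the authors' final list lay, at ncRNA gene starts, between the shares at coding promoters and away from any start. That final list, set by the irreproducible discovery rate (IDR), which rates how alike replicates rank peaks, held 106 of the 689 candidates. This was 15.4% (exact 95% Clopper-Pearson interval 12.8 to 18.3%). These 106 were the candidates of highest pooled signal among the 689, from 150.2 up. The highest candidate outside the list had 148.7. For these candidates, a share in the IDR list is thus a share above a signal cut and does not measure the agreement of single peaks. Over all 30000 pooled candidates the share was 13.7% (4105 peaks), which lies inside the interval at ncRNA gene starts. The share at these starts thus could not be told apart from that of the whole list. Among the 9122 candidates within 500 bp of a coding TSS it was 22.7% (21.9 to 23.6%), and among the 20189 away from both kinds of start 9.54% (9.14 to 9.96%). Intervals cover counting error only and count each candidate as independent, neighbours included. Candidates are not replicates of one another, so these shares were not tested against each other.

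The share at ncRNA gene starts was the higher value at each distance from coding genes. Where the nearest coding TSS was 501 to 1000 bp away, 20.3% of candidates at ncRNA gene starts were in the IDR list (24 of 118, interval 13.5 to 28.7%), against 14.4% of candidates away from both kinds of start (13.1 to 15.7%). At 1001 to 2000 bp the shares were 16.6% (10.9 to 23.6%) and 11.1% (10.2 to 12.2%). At 2001 to 5000 bp they were 14.9% (10.2 to 20.5%) and 8.99% (8.24 to 9.79%), and beyond 5000 bp 12.5% (8.47 to 17.6%) and 7.35% (6.79 to 7.94%). The intervals overlapped in the nearer pair of distance classes and not in the farther pair, and no test was run. Of the 689, 63 (9.14%) were among the 2052 strongest IDR peaks, which made up 6.84% of all pooled candidates.

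**Figure D1:**
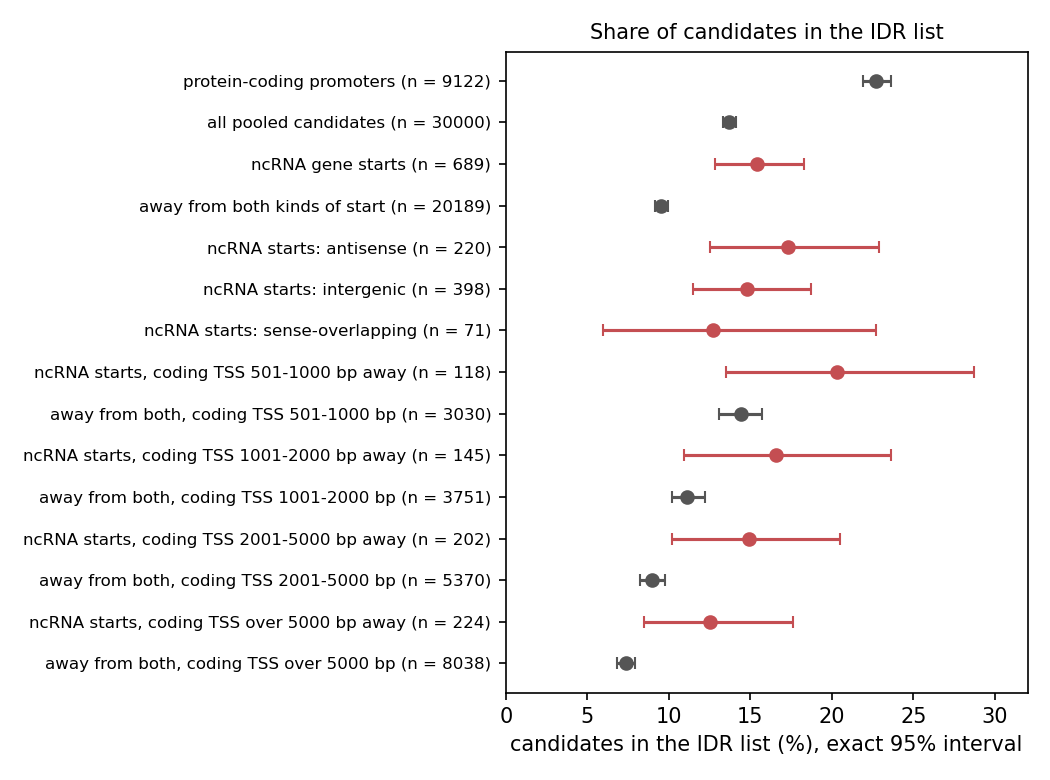
The horizontal axis gives the percentage of candidates in the IDR list and each row is a class of candidates, with its number n. Points are shares, bars exact 95% intervals, and red marks ncRNA gene starts. ncRNA gene starts stood at 15.4%, between coding promoters at 22.7% and candidates away from both kinds of start at 9.54%.

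Signal at most of these candidates was ordinary for the list. Signal here means the number deposited for each peak by its caller, on a scale that the sources used here do not state, and read depth is unknown. The median over the 689 was 58.2, against 58.1 over all pooled candidates, 79.2 at coding promoters and 52.6 away from both kinds of start. Among peaks in the IDR list the medians were 259 at ncRNA gene starts, 233 in the whole list, 248 at coding promoters and 220.1 elsewhere. Few of the candidates at ncRNA gene starts were near the top of the pooled list. The strongest stood at rank 86, 24 were among the first 1000 and 13 reached a signal of 500.

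The genes were mostly lncRNA genes. By the symbol of the nearest ncRNA gene, 548 candidates were at lncRNA genes, 89 at genes named as antisense RNAs, 17 at miRNA genes, 22 at single mature miRNAs that the annotation lists as genes of their own, and 13 at other ncRNA genes. They belonged to 597 nearest genes, of which 508 had 1 candidate, 86 had 2 and 3 had more. Of the 2757 ncRNA genes whose start was more than 500 bp from every coding TSS, 703 (25.5%) had a pooled candidate within 500 bp of the start and 118 (4.28%, 3.56 to 5.10%) had an IDR peak there. Without miRNA genes and mature miRNA records, several of which can be listed at 1 locus, the share with an IDR peak was 4.63%. For protein-coding genes, the shares were 53.3% and 17.0% (16.4 to 17.6%). Coding genes have more annotated starts per gene and were counted at any of them, but ncRNA genes at 1 start each, so the 2 sets are not counted alike.

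Split by class, the shares in the IDR list could not be told apart within their intervals. A gene was called antisense when it overlapped a protein-coding gene on the opposite strand, sense-overlapping when it overlapped coding genes on its own strand only, and intergenic when it overlapped none. Antisense genes held 38 IDR peaks among 220 candidates (17.3%, 12.5 to 22.9%), intergenic genes 59 among 398 (14.8%, 11.5 to 18.7%) and sense-overlapping genes 9 among 71 (12.7%, 5.96 to 22.7%). Median signal of the IDR peaks was 247, 245 and 276 in the same order. Antisense candidates lay closer to a coding TSS, at a median of 1788 bp against 3796 bp for intergenic ones.

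The strongest candidate lay at an antisense gene. The gene lncRNA:CR44867 (FBgn0266161, chromosome 2L, 15911691 to 15912062, plus strand, dm6) overlaps beat-Ib, which encodes an immunoglobulin-domain cell surface protein, on the opposite strand. Its peak ran from 15911086 to 15911988 with the summit at 15911732, in the exon of the ncRNA gene and 41 bp downstream of its start. The pooled signal was 1232, with 547 in replicate 1 and 696 in replicate 2. No coding TSS lay closer than 5156 bp.

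The next 3 antisense candidates by signal lay at Cdk4, osa and Dif. At asRNA:CR44375, opposite the cyclin-dependent kinase gene Cdk4 on 2R, the summit was 77 bp upstream and signals were 507 in replicate 1 and 532 in replicate 2. At lncRNA:CR46036, opposite osa, which encodes a subunit of the Brahma chromatin remodelling complex, signals were 494 and 402, with the summit inside an osa intron and 13510 bp from the nearest coding TSS. At lncRNA:CR44409, opposite the NF-κB family gene Dif, they were 481 and 316. The summit there was 473 bp downstream of the start, past the end of this short ncRNA gene and in a Dif intron. These 3 peaks had pooled signals of 1033, 888 and 800.1. In replicate 2 the peak at Dif was lower than in replicate 1 by a log2 ratio of -0.61, while that at Cdk4 differed by 0.07.

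The snoRNA host gene Uhg4 was the other antisense gene among the 20 strongest. Its start on 2R lies on the strand opposite Ctu1, a gene for an enzyme of tRNA modification, and its RNA carries snoRNAs in its introns. The summit was 20 bp upstream of the start, outside any gene, and signals were 337 in replicate 1 and 349.9 in replicate 2. The start of snoRNA:Psi28S-2949 also lay within 500 bp of this summit. The replicates thus gave nearly the same value, and the pooled signal was 683.

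Below the 20 strongest, 33 further IDR peaks lay at antisense genes, with signals from 46.6 to 212 in replicate 1 and from 68.9 to 227 in replicate 2. Their overlapped genes included lncRNA:CR44284 opposite the small GTPase gene Rab32 (162 in replicate 1 and 227 in replicate 2) and asRNA:CR43469 opposite Balat (196 and 169.5). At lncRNA:CR45325, opposite the sestrin gene Sesn and CG46429, the values were 134 and 218. At asRNA:CR45908, opposite CG1943, they were 201 and 140.2, and at lncRNA:CR46102, opposite the lipophorin receptor gene LpR2, 141 and 179. At asRNA:CR46484, opposite Pcif1, Six4 and CG11396, replicate 2 was higher, at 213 against 111.

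Some overlapped genes had more than 1 antisense IDR peak. The cyclin E gene CycE had 2, at asRNA:CR44866 (209.7 in replicate 1 and 179 in replicate 2) and lncRNA:CR44974 (75.9 and 102). The chromatin remodeller gene kis also had 2, at lncRNA:CR44222 (139 and 109.6) and lncRNA:CR44218 (46.6 and 112). At asRNA:CR46145, opposite the tyrosine kinase gene FER, 2 summits lay 236 bp apart, with signals of 215 and 99.1 in replicate 2. In replicate 1 the weaker summit had 92.3 and the stronger had no match within 100 bp. A pair of summits was also seen at lncRNA:CR45668, opposite CG16721 and near the actin gene Act5C. The stronger had 212 in replicate 1 and 156 in replicate 2, and the weaker, 629 bp away, had 113 and 150. Single peaks lay at lncRNA:CR44022 opposite the receptor phosphatase gene Ptp99A (147 and 148), lncRNA:CR44478 opposite the JAK/STAT inhibitor gene Socs36E (109 and 108) and lncRNA:CR46110 opposite kay, which encodes Fos (101 and 80.7). The same was found at lncRNA:CR44331 opposite the JNK phosphatase gene puc (114 and 73.2) and lncRNA:CR42746 opposite bun (72.5 and 86.8).

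The rest of the antisense genes with IDR peaks had overlapped genes of many kinds. They were lncRNA:CR43411 at osp, asRNA:CR45999 at CG9855, asRNA:CR46044 at the septin gene Septin2, asRNA:CR45146 at rdgBbeta, lncRNA:CR44265 at the transcription pausing factor gene Nelf-A and asRNA:CR45136 at CG30015. To these came asRNA:CR46194 at the splicing factor gene SmD3, lncRNA:CR43836 at rdgA and Nost, lncRNA:CR43606 at the actin nucleator gene spir, asRNA:CR46093 at BRWD3, asRNA:CR43629 at CG31522 and asRNA:CR44114 at sau. The RNase MRP gene and asRNA:CR45396, at the protein disulfide isomerase gene Pdi, are described below. In replicate 1 the first group ranged from 71.1 at Nelf-A to 165 at osp, and in replicate 2 from 86.0 at Septin2 to 148 at Nelf-A. In the second group the range was 53.0 (CG31522) to 104 (SmD3) in replicate 1 and 86.8 (BRWD3) to 115 (rdgA and Nost) in replicate 2. These names are the overlapped genes and do not always hold the summit. The summit at asRNA:CR46194 lay in an intron of Oda and that at lncRNA:CR43836 in a coding exon of Nost.

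Intergenic ncRNA genes made up 13 of the 20 strongest candidates. The strongest lay 10 bp inside lncRNA:CR31840 (FBgn0051840, chromosome 2L, 14023722 to 14024099, minus strand), with signals of 564 in replicate 1 and 598 in replicate 2. A neighbour in the same run, 323 bp upstream of lncRNA:CR45352, had 284 and 207. Next was lncRNA:CR44339 (FBgn0265427, chromosome 2R, 12985367 to 12985995, plus strand), 4226 bp from the TSS of the Polycomb group gene Psc, with 583 and 543. All 3 were in the IDR list, with pooled signals of 1158, 486 and 1136.

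At lncRNA:CR31044 the RNA is a miRNA precursor. This gene (FBgn0051044, chromosome 3R, 29214562 to 29219667, plus strand) contains mir-279 and mir-996, and miR-279 is known in the fly for its part in neuronal development. The summit was 121 bp upstream of the start, outside genes, with signals of 486 in replicate 1 and 559.6 in replicate 2 (pooled 1045). A second candidate lay 1330 bp farther on, inside the gene and 120 bp past the start of a mature miRNA within mir-279. It had 213 and 226, and held CAGGTG.

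The other intergenic candidates among the 20 strongest were weaker. They lay at lncRNA:CR44676 (333 in replicate 1 and 342 in replicate 2), lncRNA:CR42657, 662 bp from the TSS of the CBP gene nej (321 and 341), lncRNA:CR45541 near the hexokinase gene Hex-A (302 and 236) and lncRNA:CR45267 (301 and 236). Next came lncRNA:CR44933 (267 and 265), lncRNA:CR44363 (228 and 253), lncRNA:CR43751, 3469 bp from the TSS of the ETS repressor gene aop (199 and 207), and lncRNA:CR45297 (149 and 264). The last had the widest difference between replicates among the 20 strongest, a log2 ratio of 0.83. Sense-overlapping genes gave the remaining 2, at sisRNA:CR46357 in the calreticulin gene Calr (209 and 258) and at a mature miRNA within mir-4962 in the kinase gene Tlk (202 and 188).

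**Figure D2:**
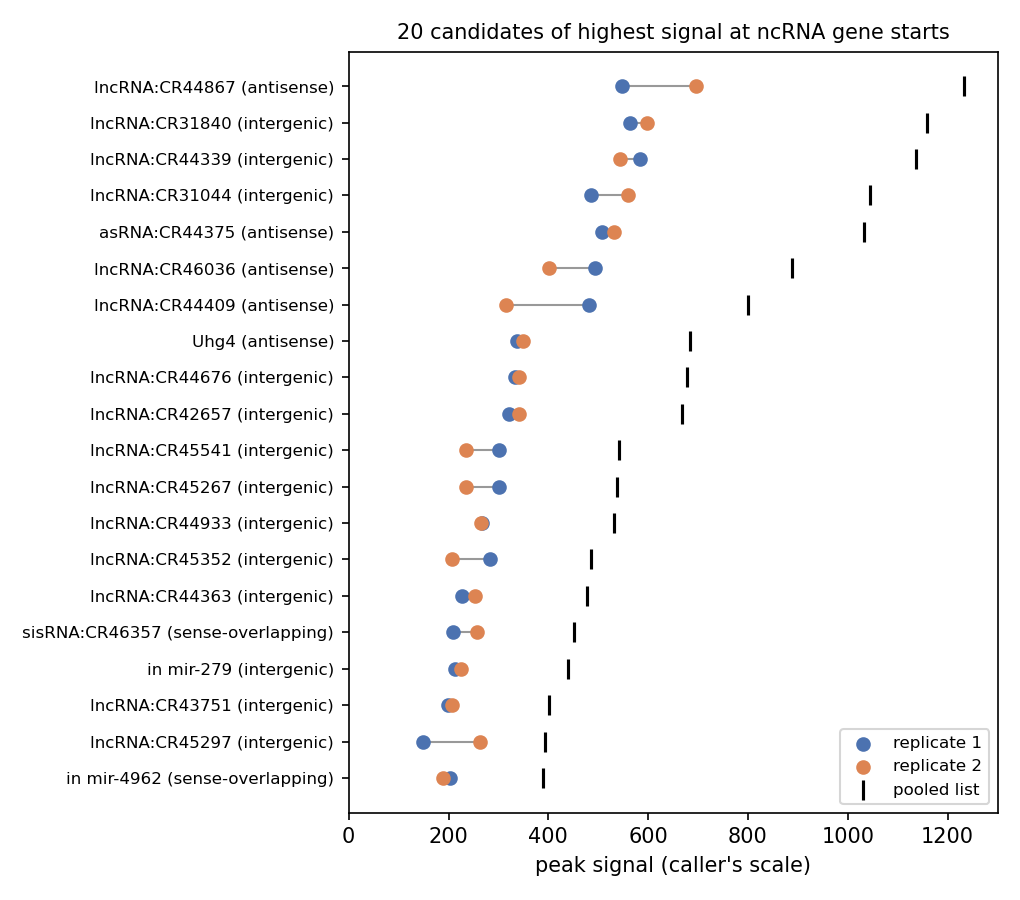
The horizontal axis gives peak signal on the caller's own scale and each row is 1 of the 20 candidates of highest pooled signal, named by its nearest ncRNA gene with its class. Blue points are replicate 1, orange points replicate 2 and black vertical marks the pooled list. Replicate 1 ran from 149 to 583 and replicate 2 from 188 to 696, and 12 of the 20 were higher in replicate 2.

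Another 46 intergenic IDR peaks had signals from 62.3 to 196 in replicate 1 and from 55.4 to 201 in replicate 2. The strongest of them lay at lncRNA:CR45595 near l(3)neo38 (179.9 in replicate 1 and 201 in replicate 2). Distances to the nearest coding TSS varied widely, with lncRNA:CR46454 at 2231 bp from the TSS of salm, which encodes a spalt zinc finger protein (154 and 167), lncRNA:CR44371 at 592 bp from that of the nuclear receptor gene Hr51 (149.6 and 141) and lncRNA:CR43431 at 40340 bp from that of the homeodomain gene mirr (131 and 104). At lncRNA:CR45278, 1323 bp from the TSS of the muscle protein gene Mp20, the signals were 173 and 174, and the summit held CAGGTG. At lncRNA:CR43837, near the gap junction gene Inx2, they were 90.4 and 201. These coding genes are named by position only.

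Further intergenic genes with signals over 110 in both replicates were lncRNA:CR44380 (189 in replicate 1 and 158 in replicate 2), lncRNA:CR45937 (148 and 169), lncRNA:CR46535 (144 and 166), lncRNA:CR45354 (116 and 176), lncRNA:CR44587 (119.9 and 165), lncRNA:CR45618 (169.7 and 113) and lncRNA:CR43622 (111 and 127). At lncRNA:CR45251, which had 2 IDR peaks, the second summit had 175 and 123. Lower peaks lay at lncRNA:CR44628, CR45588, CR43883, CR46352, CR45365, CR44651, CR43700, CR45640, CR45645, CR45290, CR44274, CR45642 and CR44420. The list ended with lncRNA:CR43838, CR45585, CR44276, CR42794, CR44522 (663 bp from the TSS of the lactate dehydrogenase gene Ldh), CR44145, CR46416, CR44571 and CR45721. Of these lower peaks, that at lncRNA:CR44628 was the highest in replicate 1 (154) and that at lncRNA:CR45588 in replicate 2 (149). The lowest values were 62.3 in replicate 1 at lncRNA:CR44522 and 55.4 in replicate 2 at lncRNA:CR44571.

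Sense-overlapping genes had 7 IDR peaks below the 20 strongest. The highest was that at lncRNA:CR45997 in mbl, which encodes the splicing regulator Muscleblind (200.5 in replicate 1 and 116 in replicate 2). The others were at a mature miRNA within mir-9378 in CG17124 (104 and 196), lncRNA:CR46265 in the choline acetyltransferase gene ChAT (139 and 134), lncRNA:CR34335 in DIP-alpha (147 and 124), a mature miRNA within mir-9377 in Tis11, whose product promotes mRNA decay (162 and 116), lncRNA:CR43399 in the actin regulator gene ena (129 and 115) and lncRNA:CR45808 in the kinase gene Hipk (116 and 91.9). Their values lay within the range of the antisense and intergenic peaks.

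miRNA genes and their precursors were found in each class. Of the 26 candidates at the starts of genes that contain miRNA genes, 6 were IDR peaks (23.1%, 8.97 to 43.6%). They were those at lncRNA:CR31044, lncRNA:CR43651 (mir-14, 145 in replicate 1 and 160.0 in replicate 2), lncRNA:CR43836 (mir-31b, 78.8 and 115), asRNA:CR46194 (mir-281-1 and mir-281-2, 104 and 91.1) and the pair at lncRNA:Hsromega (mir-4951). Of the 17 candidates at miRNA genes 1 was in the IDR list, 225 bp upstream of mir-314 (70.4 and 87.8), and of the 22 at mature miRNAs 5 were. One of those 5 lay 453 bp past the start of a mature miRNA within mir-ban (bantam), a miRNA known for promoting growth, and had the largest relative excess of replicate 2 among all matched IDR peaks at ncRNA gene starts (63.9 and 158, log2 ratio 1.31). These shares rest on few candidates, and their intervals include the background of 13.7%.

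ncRNA genes of known role were looked up by name, with or without a candidate. Of 27 symbols 24 matched a gene of biotype ncRNA, and the other 3 were not analysed here. Candidates under the rule lay at 11 of the 24, of which 5 had an IDR peak. Over all 3304 ncRNA genes 29.8% had a pooled candidate within 500 bp of the start and 5.87% an IDR peak, candidates near a coding TSS included. Over the 2757 genes whose start was more than 500 bp from every coding TSS the shares were 25.5% and 4.28%. No test was run on the few genes looked up. In 3 more the only candidates at the start were also near a coding TSS, and 10 had no candidate at the start.

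The heat shock RNA gene lncRNA:Hsromega (FBgn0001234, chromosome 3R, 21296127 to 21317836, plus strand), whose RNA organizes nuclear speckles, had 2 IDR peaks inside its 5' part. The summit 159 bp past the start had a pooled signal of 363 and 182 in replicate 2. In replicate 1 the nearest summit was 123 bp away, beyond the 100 bp allowed for a match, with a signal of 179, and its peak spanned the pooled summit. The other, 432 bp past the start, had a signal of 103 in each replicate. At lncRNA:flam (FBgn0267704, chromosome X, 21631891 to 21790731, plus strand), the flamenco locus that gives rise to piRNAs against transposons, an IDR summit lay 170 bp upstream of the start with 102 in replicate 1 and 131 in replicate 2. The nearest coding TSS was 2288 bp from the stronger Hsromega summit and 1573 bp from that at flam.

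RNase MRP RNA, a component of an enzyme of ribosomal RNA processing, had an IDR summit 299 bp upstream of RNaseMRP:RNA (161 in replicate 1 and 118 in replicate 2) and a weaker candidate 249 bp downstream (21.2 and 51.6). The snoRNA host gene Uhg3 had one 18 bp upstream of its start (84.8 and 80.2), with the start of snoRNA:Me28S-C2645a within 500 bp, and Uhg4 is given above. Candidates outside the IDR list lay at Uhg1 (pooled signal 106), lncRNA:yar (86.4), known for a part in sleep, lncRNA:noe (78.0), the dosage compensation gene lncRNA:roX2 (64.4), RNaseP:RNA (50) and lncRNA:acal (47.0 and 36.5). At lncRNA:roX2 replicate 1 had 35.6 and replicate 2 had no summit within 100 bp. All of these values lay below 149.7, the lowest signal in the IDR list, as did those of every candidate at an ncRNA gene start outside that list.

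No candidate lay within 500 bp of the start of lncRNA:roX1, lncRNA:iab8, lncRNA:bxd, lncRNA:let7C, lncRNA:cherub, lncRNA:sphinx, lncRNA:CRG, either 7SL gene or Uhg7. The Hox complex genes lncRNA:iab8 and lncRNA:bxd had 27 and 12 pooled candidates along their bodies and the 500 bp beyond either end, 2 and 3 of them IDR peaks. Over all pooled candidates 13.7% were IDR peaks. Both genes are long, from 16831116 to 16923231 and from 16742125 to 16773189 on 3R. The counts were not set against gene length or tested. The starts of Uhg2 and Uhg8 had an IDR peak each, with signals of 219 and 207, but within 500 bp of a coding TSS.

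The replicates gave similar values at these peaks. Of the 106 IDR peaks, 102 (96.2%, 90.6 to 99%) had a summit within 100 bp in both replicate lists, against 95.1% of all IDR peaks, and 83 (78.3%) were matched among the 4105 strongest candidates of both replicates, against 70.2% of all. The median signal was 127 in replicate 1 and 131 in replicate 2. Replicate 2 was higher in 56 of the 102 and replicate 1 in 46. On the log2 scale, replicate 2 over replicate 1 had a median of 0.05 and an SD over peaks of 0.47, against 0.57 over all IDR peaks. At ncRNA gene starts the IDR peaks were the candidates of highest pooled signal. Whether single peaks were also picked for agreement is not stated in the sources used here. The pooled signal and the IDR list both came from these same libraries, so the similarity of the replicates is not an independent check. How far it depends on signal strength was not tested.

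The 4 IDR peaks without a match in one replicate each lay inside a peak of that replicate with a summit 113 to 139 bp away. They were the stronger summits of lncRNA:Hsromega, lncRNA:CR45251 and asRNA:CR46145 and the weaker of lncRNA:CR45297. At the other end of the ratios from mir-ban, lncRNA:CR44218 (1.26) and lncRNA:CR43837 (1.15), the lowest were at asRNA:CR46044 (-0.82), lncRNA:CR45997 (-0.79) and lncRNA:CR44276 (-0.68). Among all 689 candidates only 331 (48.0%) had a summit within 100 bp in both replicate lists and 54 had one in neither, close to the 45.5% in both over all pooled candidates.

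**Figure D3:**
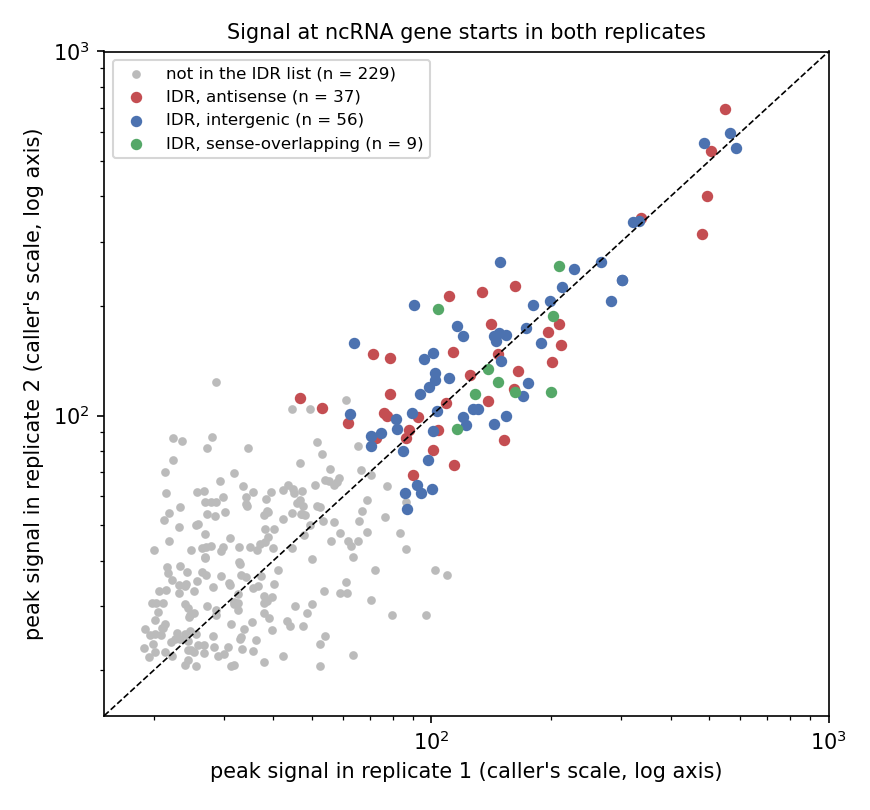
Each point is a candidate at an ncRNA gene start matched in both replicates, with its peak signal in replicate 1 on the horizontal and in replicate 2 on the vertical axis, both logarithmic and on the caller's scale. Colours show IDR peaks by class, grey the other candidates and the dashed line equal values. The 102 IDR peaks lie on both sides of the line, with a median log2 ratio of 0.05.

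At the IDR threshold the candidates formed a continuous series. The lowest IDR peaks were at lncRNA:CR44571 (pooled signal 151.0), lncRNA:CR45721 (150.3) and asRNA:CR45396 (150.2), and the highest remaining candidates at mir-4977 (148.7), lncRNA:CR44366 (148.6) and lncRNA:CR46204 (148.2). The replicate values at lncRNA:CR44366 were far apart, at 22.4 and 86.9, and those at lncRNA:CR46204 were close, at 70.5 and 68.7.

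Summits were spread over both sides of the gene start. Of the 689, 354 lay upstream and 335 at or downstream of the start, and IDR peaks made up 16.1% (12.4 to 20.4%) and 14.6% (11 to 18.9%) of them. Within 100 bp of the start the IDR share was 11.9% (7.35 to 18%), and it was 14.0, 19.4, 14.2 and 18.7% in the following steps of 100 bp. The intervals of the 5 steps overlapped. Antisense candidates lay upstream in 119 of 220 and intergenic ones in 201 of 398. Some of the ncRNA genes are shorter than 500 bp, so a summit downstream of the start can lie past the gene's end. This was so at lncRNA:CR44409 and at the stronger summits of lncRNA:CR45297 and lncRNA:CR45251.

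**Figure D4:**
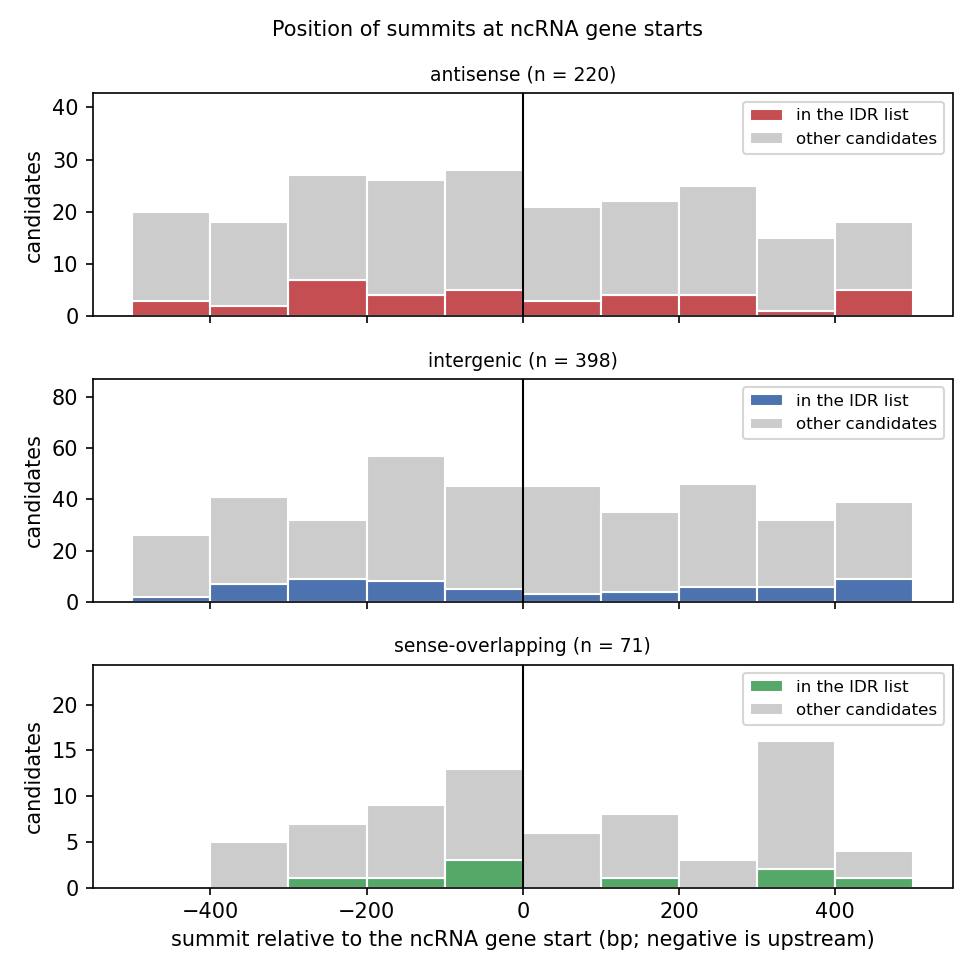
The horizontal axis gives the position of the summit relative to the start of its nearest ncRNA gene, in bp along the gene's strand with upstream negative, and the vertical axis the number of candidates in steps of 100 bp. Colour marks IDR peaks and grey the other candidates, with 1 panel per class. Summits fell on both sides of the start in each class, 354 upstream and 335 at or downstream of it.

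The summits lay in several kinds of sequence. Exons of ncRNA genes held 289 of them (14.9% in the IDR list), sequence outside genes 207 (16.9%) and introns of coding genes 123 (20.3%, 13.6 to 28.5%). In 3' UTRs of coding genes 0 of 24 were IDR peaks, which allows a share of up to 14.2% (exact interval), and in coding exons 1 of 18. By arm, IDR shares ran from 9.49% (5.15 to 15.7%) on 3L to 18.3% (11.9 to 26.1%) on 2R. Over all pooled candidates the shares on these arms were 13.3% and 14.0%, inside both intervals. On chromosome 4, 0 of the 11 candidates were IDR peaks (upper bound 28.5%), against 6.20% of all pooled candidates there.

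Short words in the 101 bp around the summit were counted on either strand. CAGGTG lay at 6 of the 106 IDR peaks (5.66%, 2.11 to 11.9%), at 6.17% of the other 583 candidates at ncRNA gene starts and at 5.91% of all 30000 windows. Among IDR peaks away from both kinds of start it lay at 10.3% (8.95 to 11.7%), whose interval overlaps that of the ncRNA gene starts. The 6 were at the mature miRNA within mir-279, lncRNA:CR45668, lncRNA:CR45278, lncRNA:Vinr, lncRNA:CR43836 and asRNA:CR45396. At lncRNA:Vinr the signals were 93.4 in replicate 1 and 115 in replicate 2, and at asRNA:CR45396 90 and 68.9. The median pooled signal of the 6 was 279 against 259 for the 100 without the word.

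The related word ACAGGT, which shares 5 bases with CAGGTG, lay at 10.4% (5.30 to 17.8%) of the IDR peaks, against 4.12% (2.66 to 6.06%) of the other candidates and 4.99% of all windows. Over all 4105 IDR peaks it lay at 9.48%, close to the share at ncRNA gene starts. The GAGA factor word GAGAGA lay at 13.2% (7.41 to 21.2%) of the IDR peaks, against 4.97% (3.36 to 7.07%) and 5.96%, and at 7.87% of all IDR peaks, which lies inside the interval. By class it lay at 8 of the 38 antisense IDR peaks (21.1%, 9.55 to 37.3%) and 5 of the 59 intergenic ones (8.47%, 2.81 to 18.7%), with overlapping intervals. TATTTA lay at 28.3% (20 to 37.9%), against 17.0% (14.0 to 20.3%) and 18.1%, and at 23.9% of all IDR peaks, again inside the interval. Of the remaining words, that spelled ACAAGT lay at 10.4% and 7.72%, the E-box CAGCTG at 2.83% and 4.80%, the Zelda word CAGGTA at 1.89% and 1.37%, the DREF core ATCGAT at 1.89% and 2.23% and the homeodomain core TAATTA at 7.55% and 7.20%. The shuffled control GTGGAC was at 0 of the 106 (upper bound 3.42%) and at 1.89% of the others. These words were searched with earlier results of the same data known, and a match is not a bound site.

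Base composition moved with TATTTA. The 30 IDR peaks with the word had a median GC content of 30.2% over the 101 bp, against 44.6% for the 76 without. Windows with under 30% GC were 27.4% (19.1 to 36.9%) of the IDR peaks at ncRNA gene starts and 12.5% (9.94 to 15.5%) of the other candidates there. Away from both kinds of start the shares were 28.1% and 13.7%. The part of base composition in the word counts was not tested.

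Some candidates lay close to others of the same kind, in many cases at the same gene. In 132 runs, 292 of the 689 lay within 5000 bp of another, but only 9 runs held 2 IDR peaks and none held more. The matching share over all pooled candidates was not computed. Many runs were 2 summits at 1 gene, as at lncRNA:CR43334, where summits 201 bp apart lay in overlapping peaks. Such pairs may be 1 region called as 2 peaks. Runs with 2 IDR peaks included lncRNA:CR31840 with lncRNA:CR45352, lncRNA:CR31044 with mir-279, the CycE pair and lncRNA:CR45640 with lncRNA:CR45642 in a run of 5 candidates. The summits of a run are neighbours on 1 chromosome arm and may not be independent, but each was counted separately in all shares and intervals.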

How the data were processed

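Per the file listing deposited with the samples, the authors made 1 list of candidate peaks and background per replicate and 1 from both alignments together, each against the same control alignment, and derived the IDR list from these 3. The deposited peak signal is the caller's own value. Which aligner and caller made it, and how it was scaled, is not given in the sources used here. In the deposited tables −log10 q stood at its top value in all 4105 IDR peaks and in 4616 pooled candidates, and was not used. Read depth is unknown, so signals are compared only within a list or beside each other.

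Coordinates are 1-based in dm6, per the labels. The summit is the interval start plus the offset column plus 1. Genes came from Ensembl release 115. Sequence came from RefSeq's Release 6 genome, and 0 peaks crossed the end of an arm. The nearest ncRNA gene start names a candidate. Replicate values are those of the nearest summit within 100 bp. Shares have exact Clopper-Pearson 95% intervals (scipy 1.17.1). With 1 group of 2 replicates no test was possible between groups, and none was run between classes of candidates, so percentages are a description.

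Genes were named by rule: those of the 20 strongest candidates, the 5 strongest of the antisense and of the intergenic class, those beside the IDR threshold, the 3 most extreme replicate ratios in each direction and 27 symbols of known role. All other IDR genes were then named too, as the choice of candidates asks. The candidates and lists were chosen with earlier results of these data known. Assignment was tested on simulated data, where 200 of 200 planted summits were assigned as by exhaustive search. Python 3.11.15, numpy 2.4.6, pandas 2.3.3 and matplotlib 3.10.9 were used.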

Additional observations from a re-analysis of the deposited data

How the results depend on the processing

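The 689 candidates became 381 with summits within 250 bp of the start and 1258 within 1000 bp, and stayed within 1.5 times that number with other definitions of either start. From 1 replicate alone there were 706 to 727, where each replicate list held 30000 entries like the pooled list. The IDR share of 15.4% lay between 14.2 and 16.2% under the alternatives that kept the IDR list. From 1 replicate, with its 4105 strongest candidates (13.7% of its list) as called, it was 15.4% without replicate 1 and 16.1% without replicate 2, against 9.23% and 9.41% away from both kinds of start. It was 9.14% with the 2052 strongest IDR peaks as called (6.84% of all pooled candidates, 4.26% away from both kinds of start) and 28.9% at double the IDR number (20.6% away from both), as fewer or more peaks were called.

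The antisense share stayed between 16.6 and 19.0% and the intergenic between 13.5 and 16.6%, and without replicate 2 both were 16.6%. Matching in both replicates fell from 96.2 to 88.7% with 50 bp and rose to 100% with 200 bp. CAGGTG lay at 1.89% of the candidates within 25 bp and 10.6% within 100 bp of the summit. Over all ncRNA genes, whatever the distance to a coding TSS, 5.87% had an IDR peak. Leaving out miRNA records, other small RNA starts or chromosome 4 was chosen after seeing the data and gave IDR shares of 15.3, 15.2 and 15.6%. No paired analysis was possible because the result comes from no test between groups. Unknown depth limits what low signals can show.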
